A study of Mus musculus with 8 samples.

Results

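The 40 genes described here encode parts of the primary cilium and of the centrosome at its base. They were listed by function with earlier results of these data known, and 37 of them have a probe set that the platform's annotation gives to that gene alone, out of 22180 genes measured in this way. Where a gene had several such probe sets, the brightest over all 8 arrays was used. For Arl6, Tctn1 and Arl13b no such probe set was named, so they were not analysed here.

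The arrays hold RNA of CD103+ CD11b+ conventional dendritic cells (cDC), sorted by flow cytometry from mesenteric lymph nodes. The mice were male C57BL6 animals, 8 weeks old, on control chow. In 1 group, 4 arrays came from mice in which the CD11c promoter drives a human BCL2 transgene (hBcl-2), a blocker of mitochondrial apoptosis. The other 4 arrays came from wild-type littermates. An array is a pool of 2 to 3 samples and counts as 1 replicate, and the labels do not tie animals to pools, so the tests measure the spread between pools. The CD11c promoter is active in dendritic cells and also in some other myeloid and lymphoid cells.

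The primary cilium is a single antenna-like extension of the plasma membrane, built on a centriole and used for signalling, among others by the Hedgehog pathway. Its parts are carried along the axoneme by intraflagellar transport (IFT), in which the IFT-B complex serves the outward journey with kinesin-2 and the IFT-A complex the return journey with dynein-2. The BBSome, named after Bardet-Biedl syndrome, moves membrane proteins in and out, and the transition zone at the base acts as a gate. Most white blood cells are not known for a primary cilium, but T cells use several IFT proteins at the immune synapse. Many of these genes also have roles at the centrosome or in vesicle traffic.

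Of the 37 genes, 5 rose and 1 fell in transgenic cDC, and 31 did not pass the threshold, an adjusted p below 0.05 in limma with Benjamini-Hochberg adjustment over all genes. Those that rose were Kiz, Ift172, Ift88, Bbs2 and Cep290, and the one that fell was Cc2d2a. Over all genes, 1.69% passed, 0.839% higher and 0.848% lower. Since the genes were put forward with this comparison known, the count describes them and supports nothing about cilia as a group. The median log2 difference of the 37 was 0.17, against -0.00 over all genes, and 27 of the 37 were above 0, as were 49.7% of all genes. Without any 1 of the wild-type arrays, or without transgenic replicate 1, 3 genes rose in place of 5. No gene fell without wild-type replicate 1, 2 or 4.

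**Figure D1:**
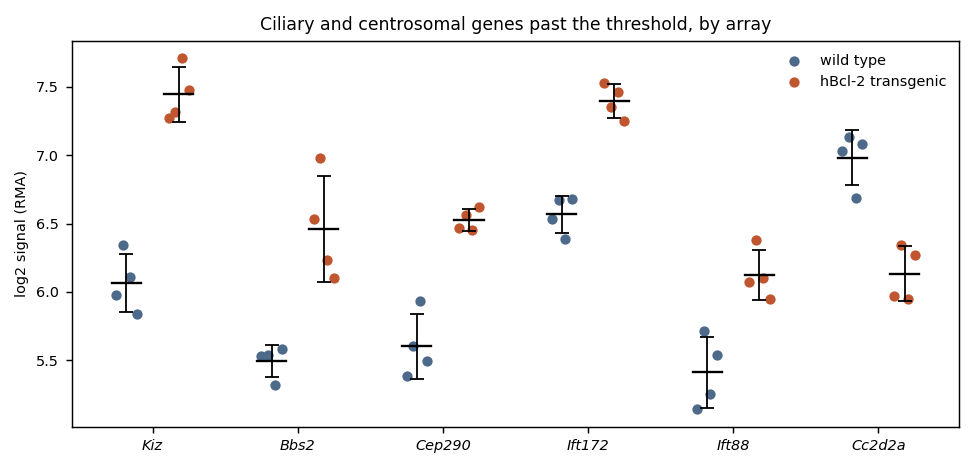
Log2 signal of the 6 genes past the threshold on each of 4 wild-type (blue) and 4 hBcl-2 transgenic (orange) arrays, with bars for the mean and SD of the 4 arrays. For all 6 genes the points of the groups do not overlap, and Kiz has the largest gap between the means (6.07 and 7.45).

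The arrays were alike in range, with medians over probe sets of 5.04 to 5.15 on the log2 scale. Transgenic replicate 4 was least like its group: it correlated with the other transgenic arrays at 0.970 on average, and the 7 other arrays with their own groups at 0.976 to 0.985. Without it the same counts of genes passed, 5 higher and 1 lower. The arrays do not check the genotype, since the transgene is human. The brighter mouse Bcl2 probe set gave 6.11 ± 0.40 in wild type and 6.86 ± 0.34 in transgenic arrays (SD, n = 4), a difference of 0.74 (SE 0.22). The dimmer Bcl2 probe set gave 4.08 ± 0.22 and 4.06 ± 0.34 (SD, n = 4), a difference of -0.02 (SE 0.18). Of the sorted cells' markers, Ccr7 (12.99 and 13.06), Flt3 (11.11 and 10.74) and Sirpa (8.37 and 8.63) were bright, while Itgae (5.66 and 5.40), which encodes CD103, and Itgam (5.57 and 5.58), which encodes CD11b, lay just above the median gene of 5.32. Of 11 such markers Kit rose, from 8.70 ± 0.09 to 9.63 ± 0.22 (SD, n = 4; limma adjusted p = 0.0100), and 10 did not pass, although Flt3 had every transgenic array below wild type (-0.37, SE 0.16).

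Kiz had the largest difference among the 37. It encodes kizuna, a centrosomal protein that is phosphorylated by Plk1 and keeps the pericentriolar material together in mitosis, and its loss causes a retinal dystrophy. Its log2 signal was 5.98, 6.34, 6.11 and 5.84 on wild-type replicates 1 to 4 and 7.27, 7.32, 7.71 and 7.48 on transgenic replicates 1 to 4. Every transgenic array lay above every wild-type array, with a gap of close to 1 log2 unit between them. The difference was 1.38 on the log2 scale (SE 0.14, 95% interval 1.06 to 1.70), a 2.60-fold rise (limma adjusted p = 0.00256). It passed in each of the 18 alternatives tried, with a difference of 1.29 to 1.47.

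The other 3 genes of the centrosome and its satellites did not pass. Pcm1, the scaffold of the centriolar satellites, was at 9.21 ± 0.16 and 9.33 ± 0.19 (SD, n = 4), and the 95% interval of its difference ran from -0.17 to 0.40. Ofd1, which encodes a protein of satellites and centrioles, was at 7.83 ± 0.23 and 7.89 ± 0.26 (SD, n = 4). Cep164, which builds the distal appendages that dock the centriole to the membrane, had transgenic values of 6.57 and 6.75 for replicates 1 and 3 and of 5.93 for replicates 2 and 4, against 5.97 to 6.29 in wild type. The Cep164 groups overlap, and its transgenic arrays were split. Whether these 3 genes differ from Kiz in their response was not tested.

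Among the 11 IFT-B genes, Ift172 and Ift88 rose, 0 fell and 9 did not pass. Ift172, which encodes a peripheral IFT-B subunit, gave 6.53, 6.67, 6.39 and 6.68 on the wild-type arrays and 7.53, 7.35, 7.46 and 7.25 on the transgenic arrays. These groups are far apart, and the values within each lie close together. The difference was 0.83 (SE 0.12, 95% interval 0.57 to 1.08), a 1.77-fold rise (limma adjusted p = 0.00967) that also passed in each of the 18 alternatives.

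Ift88, a core IFT-B subunit whose mutation in mice (the Tg737 or Polaris gene) shortens or abolishes cilia, gave 5.14, 5.71, 5.25 and 5.54 in wild type and 6.07, 6.38, 6.10 and 5.95 in transgenic arrays. The highest wild-type array was near the lowest transgenic array, without overlap. The difference was 0.71 (SE 0.15), 1.64-fold, at a limma adjusted p of 0.0470. This call was close to the threshold and was lost in 12 of 17 alternatives, including when any 1 array other than transgenic replicate 4 was left out (adjusted p = 0.0582 to 0.138 in limma).

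Of the IFT-B genes that did not pass, Ift27 and Ift57 had the smallest p. Ift27, a Rab-like GTPase of IFT-B that helps the BBSome leave the cilium, gave 5.91, 6.11, 6.18 and 6.39 in wild type and 7.28, 6.50, 6.97 and 6.32 in transgenic arrays. Transgenic replicate 4 lay within the wild-type range, and the difference of 0.62 (SE 0.20) had a limma adjusted p of 0.192. Ift57, also known as Hippi for its binding to the huntingtin partner HIP1, was bright, at 10.90, 10.85, 11.01 and 10.96 in wild type and 10.76, 10.56, 10.52 and 10.69 in transgenic arrays. All its transgenic values were below all wild-type values, by a small margin, and the difference of -0.30 (SE 0.10) did not pass (limma adjusted p = 0.223).

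Ift20, the IFT-B subunit that also sits at the Golgi and works at the T cell immune synapse, was at 7.99 ± 0.18 and 8.14 ± 0.36 (SD, n = 4). For Ift22, a small GTPase-like subunit, the 95% interval of the difference was -0.20 to 0.27. Ift80 varied most among the transgenic arrays of IFT-B, at 5.95, 5.53, 5.34 and 4.44, with replicate 4 below all wild-type arrays (4.51 to 5.00). Ift74 and Ift81, which together bind tubulin, were dim, with means over all arrays of 3.90 and 3.61, where a signal is hard to tell from background. Ift46 (-0.12, SE 0.25) and Ift52 (-0.18, SE 0.12) did not pass either.

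In the IFT-A complex, 0 of 3 genes passed, and the differences pointed both ways. Ift122, a core subunit, differed by 0.37 (SE 0.15, limma adjusted p = 0.316), and Ift43 by 0.37 (SE 0.21), with transgenic replicates 2 and 4 at 8.13 and 8.21 and replicates 1 and 3 within the wild-type range of 7.19 to 7.60. Ift140, also core, differed by -0.35 (SE 0.12, limma adjusted p = 0.234). Ift122 and Ift140 sit in the same complex, and their 95% intervals were 0.03 to 0.70 and -0.62 to -0.07.

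The 3 motor genes did not pass. Kif3b, a motor subunit of kinesin-2 that also moves cargo in cells without cilia, gave 8.24, 7.99, 7.85 and 7.81 in wild type and 7.89, 7.44, 7.37 and 7.18 in transgenic arrays. Transgenic replicate 1 lay within the wild-type range, and the other 3 lay below it. Its difference of -0.51 (SE 0.16) had a limma adjusted p of 0.181, the smallest among the 31 genes that did not pass. Its partner Kif3a was at 6.48 ± 0.24 and 6.38 ± 0.21 (SD, n = 4). Dync2h1, the heavy chain of the return motor dynein-2, was dim and lay at 4.52 to 4.74 in wild type and 4.77 to 4.96 in transgenic arrays. These groups do not overlap, but the difference of 0.25 (SE 0.10) did not pass (limma adjusted p = 0.313).

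**Figure D2:**
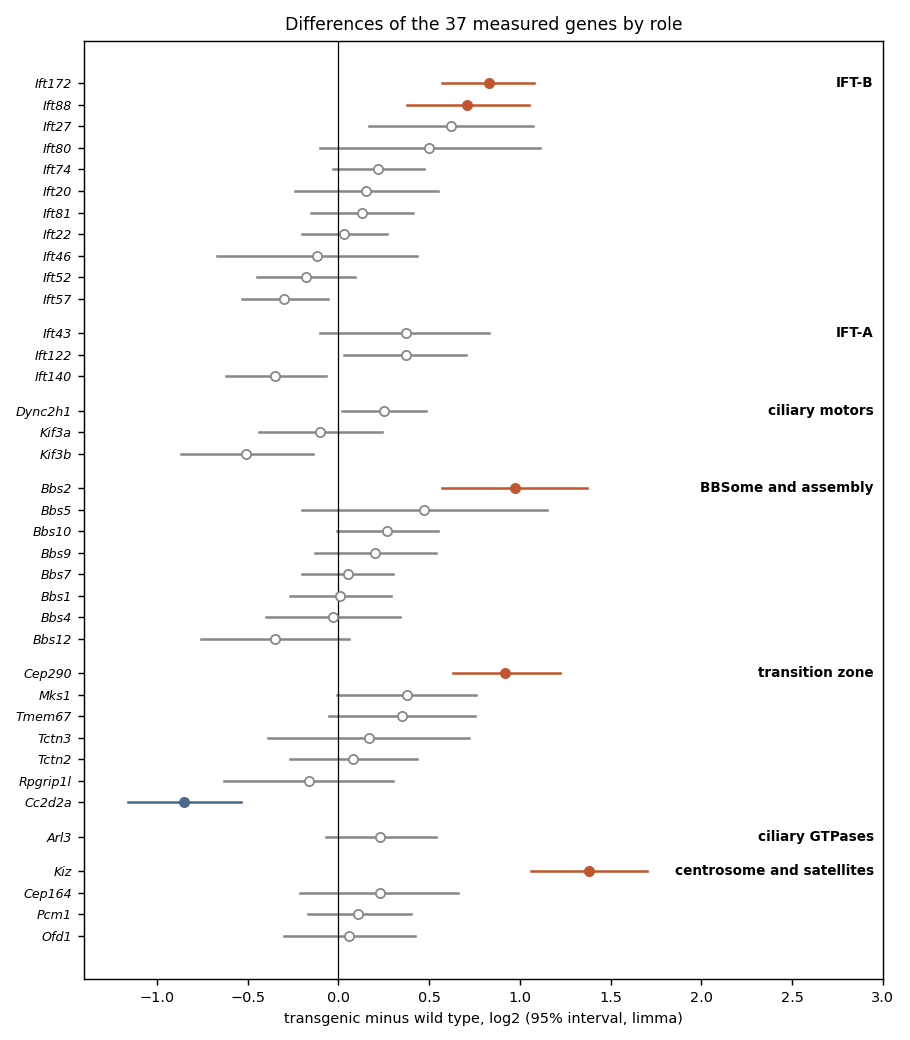
Difference of transgenic minus wild type on the log2 scale (x axis) for the 37 measured genes, grouped by role, with 95% intervals from limma. Filled orange points rose (5 genes), the filled blue point fell (Cc2d2a), and open grey points did not pass (31 genes).

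Of 8 measured genes of the BBSome and its assembly, 1 rose and 0 fell. Bbs2, a BBSome subunit of the core that forms with Bbs7 and Bbs9, gave 5.53, 5.54, 5.32 and 5.58 in wild type and 6.53, 6.98, 6.23 and 6.10 in transgenic arrays. The wild-type arrays were tight, while the transgenic arrays spread over close to 1 log2 unit, all above wild type. The difference was 0.97 (SE 0.18, 95% interval 0.57 to 1.37), a 1.96-fold rise (limma adjusted p = 0.0300). Bbs2 no longer passed without any 1 wild-type array (adjusted p = 0.0682 to 0.0922 in limma) or without transgenic replicate 1 (0.0694), while its difference stayed at 0.91 to 1.00 in those fits.

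The partners of Bbs2 did not pass. Bbs9 was at 6.61 ± 0.19 and 6.81 ± 0.26, and Bbs7, which was dim, at 3.97 ± 0.15 and 4.02 ± 0.09 (SD, n = 4). For Bbs1, the subunit that binds the GTPase encoded by Arl6, the 95% interval was -0.27 to 0.29, and for Bbs4, which also binds Pcm1, it was -0.40 to 0.34. Bbs5 stood out for 1 array, since transgenic replicate 1 was at 6.21 and the other transgenic arrays at 4.89 to 5.08, within the wild-type range of 4.18 to 5.20. The chaperonin-like assembly factors Bbs10 (0.27, SE 0.13) and Bbs12 (-0.35, SE 0.18) lay on opposite sides of 0 and did not pass.

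In the transition zone 1 gene rose and 1 fell, out of 7 measured. Cep290, whose large protein links the axoneme to the membrane at the gate, gave 5.38, 5.60, 5.93 and 5.49 in wild type and 6.47, 6.56, 6.45 and 6.62 in transgenic arrays. The transgenic arrays lay within a narrow band above every wild-type array. The difference was 0.92 (SE 0.13, 95% interval 0.63 to 1.22), a 1.90-fold rise (limma adjusted p = 0.0111) that passed in each of the 18 alternatives.

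Cc2d2a moved the other way. Its product belongs to the MKS module of the transition zone, with those of Mks1, Tmem67 and the Tctn genes, the tectonics, and binds CEP290. It gave 7.03, 7.13, 6.69 and 7.08 in wild type and 5.97, 6.34, 5.95 and 6.27 in transgenic arrays, with no overlap. The difference was -0.85 (SE 0.14, 95% interval -1.16 to -0.54), so that the signal was 1.80-fold lower (limma adjusted p = 0.0195). Cc2d2a no longer passed without wild-type replicate 1, 2 or 4 (adjusted p = 0.0649, 0.0686 and 0.0599 in limma), with differences of -0.83, -0.80 and -0.82.

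The other 5 transition zone genes did not pass. Mks1 differed by 0.38 (SE 0.17, limma adjusted p = 0.391) and Tmem67, which encodes the receptor-like protein meckelin, by 0.35 (SE 0.18), and for both the groups overlap. Tctn3, a tectonic, was at 6.90 on transgenic replicate 2 and at 5.66 to 5.94 on the other transgenic arrays, against 5.66 to 6.26 in wild type. Tctn2 was at 4.77 ± 0.09 and 4.85 ± 0.33 (SD, n = 4). Rpgrip1l, the scaffold with which this module is anchored, was at 6.19 on transgenic replicate 1 and at 5.18 to 5.50 on the others, against 5.53 to 5.92 in wild type. Tctn3 and Tmem67 each have a dimmer probe set too, which gave differences of 0.20 (SE 0.13) and -0.03 (SE 0.11). Of the ciliary GTPases only Arl3, which releases lipidated cargo inside the cilium, was measured, at 9.42 ± 0.20 and 9.66 ± 0.19 (SD, n = 4).

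Over the 37 genes, 6 had every transgenic array above every wild-type array and 2 had every transgenic array below. The former are the 5 that rose and Dync2h1, the latter Cc2d2a and Ift57. Over all genes 8.94% had groups without overlap, 4.00% with the transgenic arrays above and 4.94% with them below. At an unadjusted p below 0.05 in limma there were 12 of the 37 (8 higher, 4 lower), where the share over all genes was 13.2% (6.56% higher, 6.60% lower). As above, these counts come from the comparison known when the genes were listed. For 17 of the 37 (45.9%), the 95% interval lay wholly within a 1.5-fold change either way, against 70.2% of all genes, and for 20, the 6 that passed included, it reached beyond. The mean over all arrays lay below the median gene for 9 of the 37.

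The arrays differed in how these genes moved. The median of the 37 relative to the wild-type mean was 0.19, 0.24, 0.03 and 0.13 on transgenic replicates 1 to 4, and -0.03 to 0.11 on the wild-type arrays, so the medians overlap at transgenic replicate 3. The spread was a little wider among transgenic arrays, with a median SD of 0.22 against 0.19 in wild type, and over all genes it was 0.21 against 0.17. Transgenic replicate 1 had the highest transgenic values of Ift27, Ift80, Bbs5 and Rpgrip1l, among others. Transgenic replicate 4 lay at both ends. It had the lowest value of all arrays for Ift46, Ift52, Ift80, Ift140, Kif3b, Bbs4 and Bbs12. Its value was the highest of all arrays for Ift20, Ift43, Ift74, Bbs7, Bbs9, Cep290 and Tctn2.

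**Figure D3:**
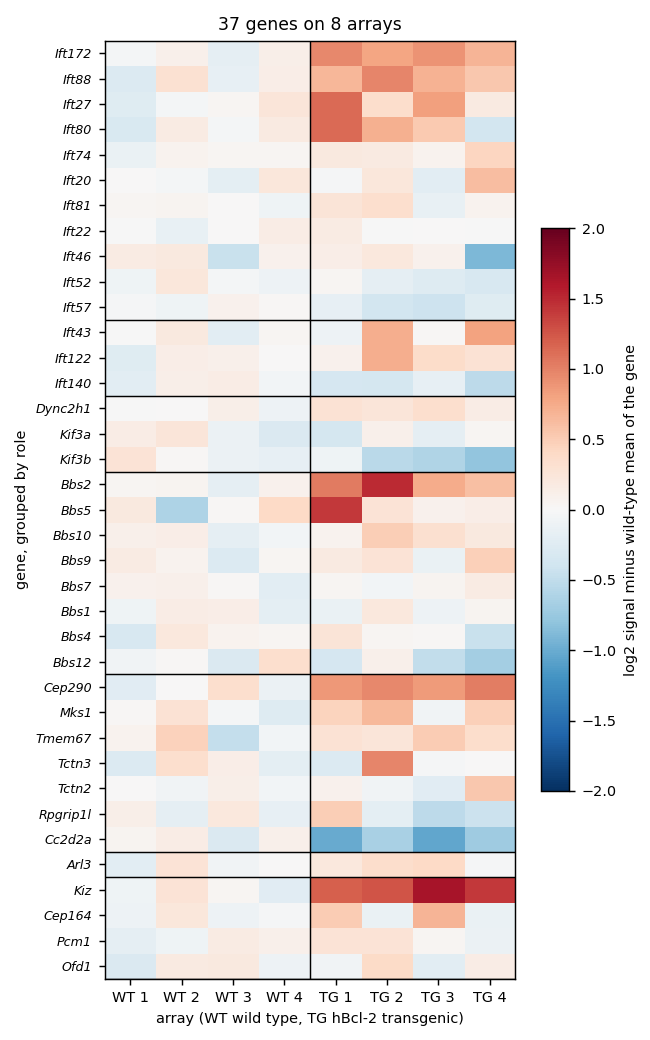
Log2 signal of each of the 37 measured genes (rows, grouped by role) minus the gene's wild-type mean on the 4 wild-type (WT) and 4 transgenic (TG) arrays (columns), where red is above and blue below that mean. Kiz, Cep290, Ift172, Ift88 and Bbs2 are red and Cc2d2a is blue on all 4 transgenic arrays, while Bbs5 is deep red on TG 1 alone.

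The promoters of the 6 genes that passed are shown because these genes changed in the same comparison, Cc2d2a against the others. The RefSeq windows for GRCm38.p6 hold 250 bases before and 50 after a gene's start, and 35 of the 40 genes have one. The bases before the start are given 5′ to 3′ in the gene's direction, in lower case, with capitals for CCAAT boxes (CCAAT, bound by NF-Y) and GC boxes (GGGCGG, bound by SP1) on either strand.
Kiz (chr2:146855630-146855879, plus strand): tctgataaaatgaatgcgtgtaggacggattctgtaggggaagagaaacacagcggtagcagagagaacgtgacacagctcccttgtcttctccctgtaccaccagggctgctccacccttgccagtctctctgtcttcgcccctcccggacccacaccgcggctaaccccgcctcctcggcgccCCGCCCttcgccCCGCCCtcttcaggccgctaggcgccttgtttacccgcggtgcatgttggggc
Ift172 (chr5:31291115-31291364, minus strand): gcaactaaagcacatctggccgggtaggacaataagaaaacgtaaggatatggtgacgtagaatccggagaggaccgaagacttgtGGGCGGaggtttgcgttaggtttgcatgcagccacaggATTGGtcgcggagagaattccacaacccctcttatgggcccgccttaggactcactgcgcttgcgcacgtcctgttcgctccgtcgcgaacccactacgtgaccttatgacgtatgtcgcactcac
Ift88 (chr14:57423821-57424070, plus strand): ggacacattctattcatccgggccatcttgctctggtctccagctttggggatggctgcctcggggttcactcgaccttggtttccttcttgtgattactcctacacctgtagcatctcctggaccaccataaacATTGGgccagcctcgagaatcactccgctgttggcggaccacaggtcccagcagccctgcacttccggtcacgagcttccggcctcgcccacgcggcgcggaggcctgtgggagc
Bbs2 (chr8:94098510-94098759, minus strand): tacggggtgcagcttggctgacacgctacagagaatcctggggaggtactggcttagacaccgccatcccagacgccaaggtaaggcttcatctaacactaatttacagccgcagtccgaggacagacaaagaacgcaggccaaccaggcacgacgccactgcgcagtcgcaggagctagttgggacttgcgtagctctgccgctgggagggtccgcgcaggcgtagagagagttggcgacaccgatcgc
Cep290 (chr10:100487332-100487581, plus strand): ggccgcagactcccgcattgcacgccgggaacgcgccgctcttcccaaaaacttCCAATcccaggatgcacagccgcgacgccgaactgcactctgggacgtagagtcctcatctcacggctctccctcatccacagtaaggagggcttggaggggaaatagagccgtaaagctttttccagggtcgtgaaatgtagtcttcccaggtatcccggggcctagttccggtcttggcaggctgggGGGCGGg
Cc2d2a (chr5:43662129-43662378, plus strand): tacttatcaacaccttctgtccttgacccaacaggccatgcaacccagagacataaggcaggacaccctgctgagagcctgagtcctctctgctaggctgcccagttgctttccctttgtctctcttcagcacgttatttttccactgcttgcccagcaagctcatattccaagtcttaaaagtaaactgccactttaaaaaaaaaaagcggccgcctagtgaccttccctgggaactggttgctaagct

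The 6 promoters had no common set of boxes. The bases before the start of Ift172 and Cep290 held 1 CCAAT box and 1 GC box each, those of Ift88 held 1 CCAAT box, those of Kiz held 2 GC boxes, and those of Bbs2 and Cc2d2a held neither. Cc2d2a had the lowest GC content of the 6 (48.8%), with the others at 54.8% to 62.4% and the median over all windows at 52.4%. In the full windows, a CCAAT box was found in 58.3% of those of the listed genes and 37.4% of all windows, and a GC box in 55.6% and 35.7%. A match is a description of the letters and not a bound site.

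RFX transcription factors are known activators of ciliary genes through the X-box, an inverted repeat. It was searched on both strands as GTNNCC and NGNAAC with 0 to 3 bases between, over the full windows. Of the 35 genes with a window, 11 held a match (31.4%), against 5.94% of all genes with a window and 5.25% of all windows. The genes were 3 of 9 in IFT-B, 3 of 9 in the BBSome group, 4 of 7 in the transition zone and Kiz. The matches of Kiz and of 5 others, a part of those found, are shown to set a gene that rose beside genes that did not pass. Capitals mark the arms and lower case the bases between.
Bbs7 (chr3:36613497-36613510, read on the minus strand): GTTGCCttGGAAAC
Ift22 (chr5:136908087-136908100, read on the minus strand): GTAGCCcaGGAAAC
Ift22 (chr5:136908117-136908130, read on the plus strand): GTCGCCgtGGAAAC
Ift57 (chr16:49699207-49699220, read on the minus strand): GTCACCacGGCAAC
Ift57 (chr16:49699234-49699246, read on the plus strand): GTTGCCtGGTAAC
Kiz (chr2:146855881-146855895, read on the plus strand): GTCTCCttgGGCAAC
Mks1 (chr11:87853191-87853204, read on the plus strand): GTTGCCagGGGAAC
Tctn3 (chr19:40612359-40612371, read on the minus strand): GTTGCCaGGTAAC

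Kiz was the only 1 of the 6 genes past the threshold with a match, which lies just after its start, at bases 2 to 16. Ift172, Ift88, Bbs2, Cep290 and Cc2d2a had none of these letters in their windows. Ift22 and Ift57 each held 2 matches before their starts, and their differences were 0.03 and -0.30. Bbs7, Mks1 and Tctn3 held 1 each, at differences of 0.05, 0.38 and 0.17. None of these 5 passed. Nor did Bbs1, Bbs4, Ift74 and Tctn2, whose matches are not shown, at differences of 0.01, -0.03, 0.22 and 0.08. Tctn1 also held a match but was not measured.

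In further lists of ciliary and centrosomal genes, which leave out the 40, 0 of 150 measured genes passed in limma in either direction. Over all genes 1.69% passed, a share at which few of 150 would pass, so the 0 does not set these lists apart. At an unadjusted p below 0.05 in limma there were 14 (9 higher, 5 lower), where the share over all genes was 13.2%. The median log2 difference of the 150 was 0.02. Among 18 other IFT and motor subunits the median was 0.12. Cluap1, also called IFT38 and a partner of Ift20 in IFT-B, had the highest difference of the 150, at 6.54 ± 0.26 and 7.21 ± 0.35 (SD, n = 4), a difference of 0.67 (SE 0.19, limma adjusted p = 0.120). Cluap1 passed without transgenic replicate 4 (0.82, adjusted p = 0.0450 in limma) and with array weights (0.76, 0.0430). The dynein-2 chain genes Wdr60 (0.40, SE 0.13) and Tctex1d2 (0.25, SE 0.11) and the kinesin-2 gene Kif3c (0.34, SE 0.12) had all transgenic arrays above wild type and did not pass.

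Centriole genes pointed both ways. Cetn2, which encodes the calcium-binding centrin 2, was at 0.56 (SE 0.16), and Ccp110, whose product caps centrioles and holds back cilia, at 0.37 (SE 0.11), both with all transgenic arrays above. Cenpj, which lengthens centrioles, was at -0.34 (SE 0.11), with all transgenic arrays below. Plk4, the kinase that starts centriole duplication, was at 7.32 on transgenic replicate 4 and 6.24 to 6.49 on the others, against 6.84 to 7.10 in wild type. Without transgenic replicate 4, Plk4 was at -0.65 and passed (adjusted p = 0.0300 in limma), and with it at -0.41 (adjusted p = 0.477). The median of the 21 genes was 0.10, and that of the 16 genes of the pericentriolar material and satellites -0.04.

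Of 16 Hedgehog pathway genes 0 passed, and 10 lay below the median gene. The targets Gli1 (0.05, SE 0.14) and Ptch1 (0.10, SE 0.15) overlapped between groups. Sufu, an inhibitor of the GLI factors, had levels of 6.88 ± 0.10 and 7.25 ± 0.13 (SD, n = 4), a difference that did not pass (0.37, SE 0.11, limma adjusted p = 0.144). Among 14 RFX and multiciliogenesis regulators 0 passed, with differences of 0.04 for Rfx2, -0.19 for Rfx3 and -0.31 for Rfx5, and Foxj1, the master regulator of motile cilia, was dim at 4.98 ± 0.19 and 4.92 ± 0.32 (SD, n = 4). Of 17 genes of the motile axoneme 16 lay below the median gene, and of 8 genes of cilium disassembly 0 passed, with differences of -0.18 to 0.09. In the lists of 19 other BBSome and transition zone genes, 15 of ciliary lipid and vesicle traffic and 6 ciliary receptors and channels, 0 passed, with medians of 0.01, -0.03 and 0.04. Rab11a, a recycling endosome GTPase, had the smallest p of the 150 (-0.38, SE 0.10, limma adjusted p = 0.108).

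**Figure D4:**
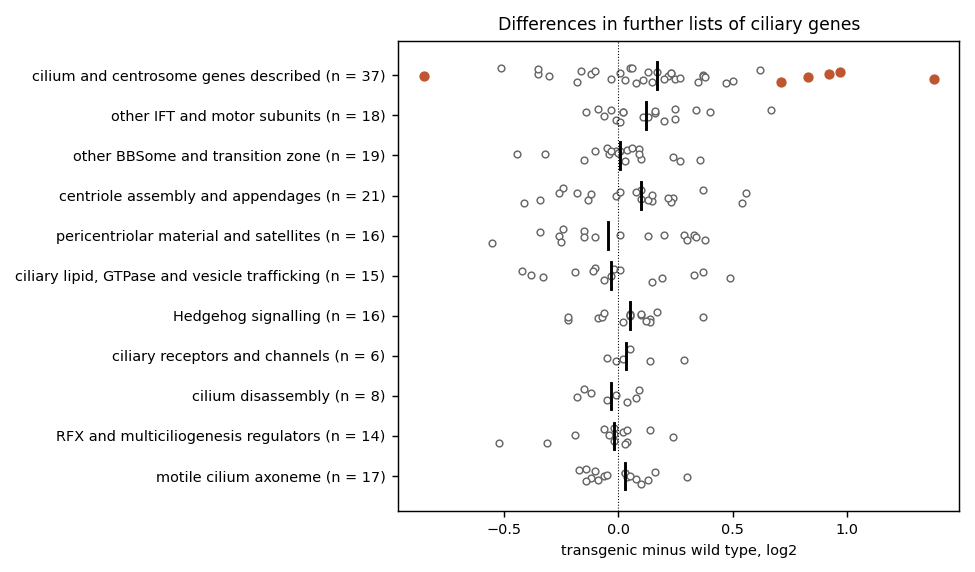
Difference of transgenic minus wild type on the log2 scale (x axis) for the 37 cilium and centrosome genes described and for each further list (rows), where points are genes, black bars are medians and filled points passed the threshold. Filled points appear only in the top row, whose genes were listed with this comparison known and left out of the other lists. The rows are therefore not an independent contrast. The medians of the other lists lie between -0.04 and 0.12.

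In sorted bulk samples, fewer cells of a type and less RNA per cell cannot be told apart, so markers of other cells were set beside these genes. The summed level of a list is the log2 of its summed linear signals. It did not overlap for 9 NK cell genes, at 10.17 to 10.82 in wild type and 10.94 to 11.76 in transgenic arrays, but this rested on Klrd1, which rose (1.50, SE 0.19, limma adjusted p = 0.00644). The other 8 NK cell genes each overlapped between groups, 0 passed, and their sum overlapped too, with the highest wild-type array at 10.32 and the lowest transgenic array at 9.34. Of all 9 NK cell genes, however, 8 had a difference above 0 and 1, Gzmb (-0.31), below, with a median of 0.30. The sum of 7 cDC1 genes also did not overlap, at 11.75 to 11.91 and 11.45 to 11.74, but Irf8 (-0.49, SE 0.15) and Batf3 (-0.10, SE 0.17) made up 78.3% to 90.7% of it, and neither passed. Irf8 had every transgenic array below every wild-type array. The other 5 cDC1 genes overlapped singly and as a sum (8.54 to 8.98 and 8.31 to 9.45). Their differences pointed both ways, at 0.48 for Cadm1, 0.28 for Itgb5, -0.05 for Naaa, -0.14 for Xcr1 and -0.49 for Tlr3. The sums without Klrd1, and without Irf8 and Batf3, were added after the data were seen. The full sums overlapped for B cells, T cells, plasmacytoid dendritic cells and macrophages and monocytes, although Cd4, Bst2 and Adgre1 rose. The median differences of these lists were, in that order, -0.14, -0.27, 0.34 and 0.11. Cd4 did not stand for its list, since 6 of the 8 T cell genes had a difference below 0. A sum weighs its brightest genes most. For plasmacytoid dendritic cells these were Spib and Bst2, which moved opposite ways without overlap between groups. Bst2 was at 0.76 (SE 0.13), and Spib at -0.64 (SE 0.16) did not pass (limma adjusted p = 0.0791). The brightest macrophage and monocyte gene was Lyz2 (-0.08, SE 0.26). Of the 9 genes of that list 6 had a difference above 0 and 3 below. Among the 6 were Ly6c2 (1.81, SE 0.77) and Cd14 (0.74, SE 0.26), which did not pass. The part of these cells in the differences above was not tested.

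Stromal cells of the lymph node can carry primary cilia, and their markers were set beside these genes in the same way. The 8 measured genes of fibroblastic reticular cells summed to 7.70 to 7.88 in wild type and 7.67 to 7.87 in transgenic arrays, with 7 of them, among them Pdgfrb, Col1a2 and Dcn, below the median gene, and 0 passed. The sums for endothelium (7.94 to 8.24 and 7.87 to 8.23) and epithelium (8.55 to 8.76 and 8.66 to 8.78) overlapped too, and 0 of 8 and 0 of 7 genes passed. Of 11 proliferation genes, which matter because centrosomes duplicate in the cell cycle, 0 rose and 1 fell, Mki67, from 8.20 ± 0.27 to 7.07 ± 0.46 (SD, n = 4; limma adjusted p = 0.0350). Of these 11 genes 9 had a difference below 0, and the median was -0.17. The summed level of that list overlapped, at 10.60 to 10.97 and 10.27 to 11.06. It weighs most on the brightest gene, Pcna, which was at 0.28 (SE 0.16), so it does not show the direction of the other genes. The part of proliferation in the differences was not tested.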

How the data were processed

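Gene expression was measured on 8 arrays, 4 wild type and 4 hBcl-2 transgenic, grouped by the labels; 2.5 ng of RNA per array was amplified. The log2 values per probe set were used as the authors deposited them; the submitters' processing notes give RMA and Partek, with no versions. RMA makes the arrays' distributions alike, so a shift of all genes would not be seen. Arrays have no read depth, and their number limits the precision.

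Of 34390 probe sets, 23521 name 1 gene in the platform's annotation, and the brighter set was used for each of 22180 genes, with no filter on signal. The difference, transgenic minus wild type, was tested in limma 3.58.1 (lmFit, eBayes; R 4.3.3), and p-values were adjusted by Benjamini-Hochberg over every gene. SDs are over 4 arrays, SEs and 95% intervals from limma. The procedure was tested on simulated data. Lists and genes were chosen with earlier results of these data known. All 40 genes may be named. From each further list, up to 4 members past the threshold and those with the highest and lowest statistic may be named; others (such as Wdr60, Tctex1d2, Kif3c, Ccp110, Gli1, Ptch1, Foxj1, the Rfx genes and Plk4) were named after their values were seen, as were the CCAAT and GC boxes. Promoters are RefSeq's for GRCm38.p6. Plots were made in Python 3.11.15 (matplotlib 3.10.9).

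The alternatives were trended and robust variance moderation, filters on dim genes, repeated quantile normalization, median centring, probe sets averaged or tested singly, a block for the replicate number, array weights and leaving out each array.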

Additional observations from a re-analysis of the deposited data

Results flagged for a closer look

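In 3 of the 74 combinations of a gene and a group, 1 array lay far from the other 3 of its group by Dixon's criterion, which marks about 1 in 20 groups by chance. Bbs5 was at 6.21 on transgenic replicate 1 and at 4.89 to 5.08 on the other transgenic arrays. Ift46 was at 6.25 on transgenic replicate 4 and at 7.23 to 7.36 on the others, and without that array its difference was 0.14 in place of -0.12. Ift22 was at 7.51 on transgenic replicate 1 and at 7.33 to 7.35 on the others, a small gap among close values. None of the 3 genes passed with or without these arrays.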

How the results depend on the processing

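Kiz, Ift172 and Cep290 passed in all 18 alternatives in limma, and 28 of the 37 genes kept their sign in all that could be run for them. None of the 31 others passed in any. The fit on genes with a mean of at least 6 tested 8560 genes and 22 of the 37, which leaves out Ift88 and Bbs2. Of those 22, 3 rose. Of the 8560 genes 308 fell, where 188 of 22180 fell in the main fit. Array weights gave 283 higher genes in place of 186, with 1 pathway gene, Cluap1, among them. With the replicate number as a block, 3 of the 37 rose (Ift88 at adjusted p = 0.0661, Bbs2 at 0.0506 in limma) and 1 fell. Over all genes 95 rose and 92 fell in that fit. After the group mean of each gene was subtracted, same-numbered arrays correlated at -0.03 to 0.08. The numbers were therefore not taken to pair the pools. Leaving out 1 array gave 3 to 5 higher and 0 to 1 lower of the 37, 55 to 216 higher and 51 to 163 lower over all genes, and 0 to 1 pathway gene each way. Signs turned for 9 genes that did not pass. With array weights, Ift46 was at 0.03, Bbs1 at -0.03 and Bbs4 at 0.06. Over the fits without 1 array, differences ran from -0.01 to 0.28 for Ift20, -0.02 to 0.08 for Ift22, -0.27 to 0.14 for Ift46, -0.06 to 0.06 for Bbs1, -0.14 to 0.11 for Bbs4, -0.02 to 0.09 for Bbs7, -0.07 to 0.18 for Tctn2, -0.10 to 0.31 for Tctn3 and -0.05 to 0.15 for Ofd1. Fewer arrays, or a block, leave fewer degrees of freedom; other causes were not tested. Signals near the dim end limit the sizes for Ift74, Ift81, Bbs7 and Dync2h1.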
